A study of Mus musculus with 12 samples.

Results

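The m5C level of polyadenylated RNA from mouse liver was compared with that from small intestine at each cytosine read at least 20 times in both tissues. The sites lay mostly in protein-coding transcripts, with some in ribosomal, transfer and other non-coding RNA. Of 2498 cytosines in the deposited table, 1347 met that rule, and they lay in 1079 of 1964 genes. Liver had at least 20 reads at 1556 cytosines and small intestine at 1609. A further 209 sites had that depth in liver only, 262 in small intestine only, and 680 in neither. The rule used coverage and no level. At its edge, the 34 tested sites with 20 to 24 reads in the shallower tissue had median levels of 10.0% in liver and 5.00% in small intestine. Taken site by site, however, their median difference was 0 points. The 37 sites just outside, with 15 to 19 reads, had median levels of 10.5% and 7.69% and a median difference of 1.25 points.

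The libraries were made from polyadenylated RNA of wild-type (WT) C57BL/6 mice aged 8 to 10 weeks, treated with bisulfite and sequenced. Liver was 1 female library. Small intestine was 1 female and 1 male library. The table has 1 set of columns per tissue, so the 2 small intestine libraries share 1 value per site; the sources used here do not say how they were pooled. Tissue, sex and number of libraries cannot be told apart in this comparison. The labels give no batch, so any difference in bisulfite treatment cannot be told apart from tissue either. No value below carries a spread between animals: the tests and intervals compare the reads of the 2 columns and cover counting error only. Either of 2 kits was used to select polyadenylated RNA, and the sources used here do not say which library had which. A site's level is the percentage of its reads that still showed C after bisulfite, which turns unmethylated cytosine into a base read as T. Any C that escaped conversion for another reason counts as methylated in the same way.

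In mRNA, 5-methylcytosine is written mainly by NSUN2, which in human and mouse cells favours cytosines followed by a run of G near the start of the transcript, and by NSUN6, which favours CTCCA near the end. ALYREF, an mRNA export factor, and YBX1, a cold-shock protein that steadies transcripts, bind methylated mRNA. In mitochondria, NSUN4 methylates the small ribosomal RNA and NSUN2 and NSUN3 methylate tRNAs.

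The columns were checked against markers of each tissue by coverage. Hepatocyte genes had 1235309 reads in liver at 2 listed sites, of which the Alb site (serum albumin) had 1177520, and both sites were blank in small intestine. Genes of the intestinal epithelium had 42113 reads in small intestine and 581 in liver at 4 sites. Tff3, a goblet cell peptide, made up 492 of those 581 liver reads, and Lyz1, the Paneth cell lysozyme, made up the other 89. Smooth muscle genes had 7200 reads in small intestine and 93 in liver at 4 sites. Among these, Actg2 and Synm were blank in liver. Csf1r, a macrophage receptor and the only immune marker with a listed site, had 1504 reads in liver and 1548 in small intestine. Of 5 skeletal muscle sites, all were blank in small intestine and 4 in liver, where Myh4 had 48 reads; its part in the results was not tested. Levels are per transcript read, so a change in the cells that supply a transcript and a change within a cell cannot be told apart.

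Sequence could be read for only a few members, because RefSeq promoter windows (GRCm38.p6, the assembly called mm10; 250 bases before to 50 after each start) were the only genomic sequence used. They held 39 tested sites, and each of the 94 listed sites inside a window of its own gene was a C there. The sequences below are shown because they hold the tested sites with the highest levels, the clearest differences or clusters of neighbouring sites among these 39, and the genes were chosen after their values were seen. Sequences run 5′ to 3′ on the transcribed strand, and capitals mark the listed cytosines that were tested.
Ppm1m: cgctccagCCCggtgccct
Dcun1d3: ggaggaggCggCggCCgCggtggcag
Esd: ggcggaagCCC
Ppp2r2d: CgacggtggcggCagcggcggC
Cadps2: gcggtcccCgggcgccc
Ptpn4: tctcgccgCgaggtgcg
Psma4: gtcttcctCtggtgag
The Ppm1m stretch is chr9:106199103-106199121 on the minus strand, Dcun1d3 is chr7:119895681-119895706 on the minus strand and Esd is chr14:74732336-74732346 on the plus strand. Ppp2r2d is chr7:138846412-138846433 on the plus strand, Cadps2 is chr6:23839379-23839395 and Ptpn4 chr1:119837151-119837167, both on the minus strand, and Psma4 is chr9:54950893-54950908 on the plus strand. Ppm1m, which encodes a protein phosphatase, was the only gene among the 39 sites with a called difference. Its 3 adjacent cytosines read, in transcript order, 30.5%, 12% and 51% in liver and 17.2%, 5.98% and 23.1% in small intestine. The outer cytosines were called higher in liver and the middle one was not (Fisher's exact adjusted p = 0.197).

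In Dcun1d3, which encodes a neddylation factor, the 5 sites ran from 41.7% at the 5′ end of the stretch through 31.1%, 29.9% and 20.8% to 11.3% in liver, and from 19.4% through 16.2%, 14.6% and 14.6% to 0% in small intestine. The last value was 0 of 47 reads, which allows a level of up to 6.38%. The lowest Fisher's exact adjusted p among these 5 sites was 0.0628, so none passed. The Esd triplet, in the gene of esterase D, read 11.4%, 13.2% and 12.5% in liver and 3.57%, 5.13% and 5.23% in small intestine. Its 3 sites passed the test but not the 10-point minimum (Fisher's exact adjusted p from 0.0202 to 0.0252).
Cadps2, a vesicle priming factor, had 69.2% in liver and 63.6% in small intestine at a cytosine followed by GGG, and did not differ beyond counting error (adjusted p = 0.946, Fisher's exact test). In Ppp2r2d, a regulatory subunit of phosphatase 2A, the 3 sites were 28%, 37.5% and 28.6% in liver and 50%, 40.2% and 33.6% in small intestine, with adjusted p of 0.203, 0.924 and 0.666 by Fisher's exact test. Psma4, a proteasome subunit, was at 6.64% in liver and 13.4% in small intestine, past the test at an adjusted p of 0.00249 but not 10 points apart. Of the 34 windows with at least 4 bases after the site, 7 (20.6%) held CGGG or CNGGG starting at the site, against 4.33% of 2577921 cytosines in 32851 windows, read on the transcribed strand. The median levels of those 7 sites were 5.47% in liver and 3.89% in small intestine, and none was called. CTCCA started at none of the 34, against 0.668% of window cytosines.

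Over all 1347 sites the level was higher in liver more often than in small intestine. The median site was at 6.03% in liver (quartiles 2.21 to 12.8) and 3.76% in small intestine (1 to 8.57). The median difference, liver minus small intestine, was 1.77 percentage points (quartiles -0.14 to 5.54). The level was higher in liver at 950 sites, higher in small intestine at 352 and equal at 45. It was 0% at 112 sites in liver and at 157 in small intestine. Summed over sites, 141340 of 1444184 liver reads (9.79%) and 149191 of 1925241 small intestine reads (7.75%) were unconverted. A level of 10% was reached at 213 sites in both tissues, at 256 in liver alone, 72 in small intestine alone and 806 in neither.

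A difference was called at a Benjamini-Hochberg adjusted p under 0.05 by Fisher's exact test (two-sided) and at least 10 percentage points, which 151 sites (11.2% of those tested) met. Of these, 109 were higher in liver (8.09%), in 99 genes, and 42 were higher in small intestine (3.12%), in 32 genes. The liver calls had a median level of 22.7% in liver and 6.28% in small intestine. The small intestine calls had medians of 4.03% in liver and 21% in small intestine. Differences were mostly moderate: 82 of the 109 liver calls and 30 of the 42 small intestine calls lay between 10 and 20 points. At 75 of the liver calls and 29 of the small intestine calls, only the higher tissue reached 10%. The adjusted p alone passed at 427 sites (31.7%), 355 of them higher in liver.

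Centring removes the general shift and so moves the directions towards balance by construction. When the test was centred on the median odds ratio of 1.67 and the median difference of 1.77 points, 58 sites were called higher in liver and 61 in small intestine. The liver share of calls was then 48.7%, against 72.2% uncentred. As centring moves every difference towards small intestine, all 58 were among the 109 liver calls. For the same reason, all 42 of the uncentred small intestine calls were among the 61. Sites with another listed site within 10 nt made up 157 of the 1347 tested sites, 13 of the 109 liver calls and 16 of the 42 small intestine calls. Without such sites, 96 were called higher in liver and 26 in small intestine.

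**Figure D1:**
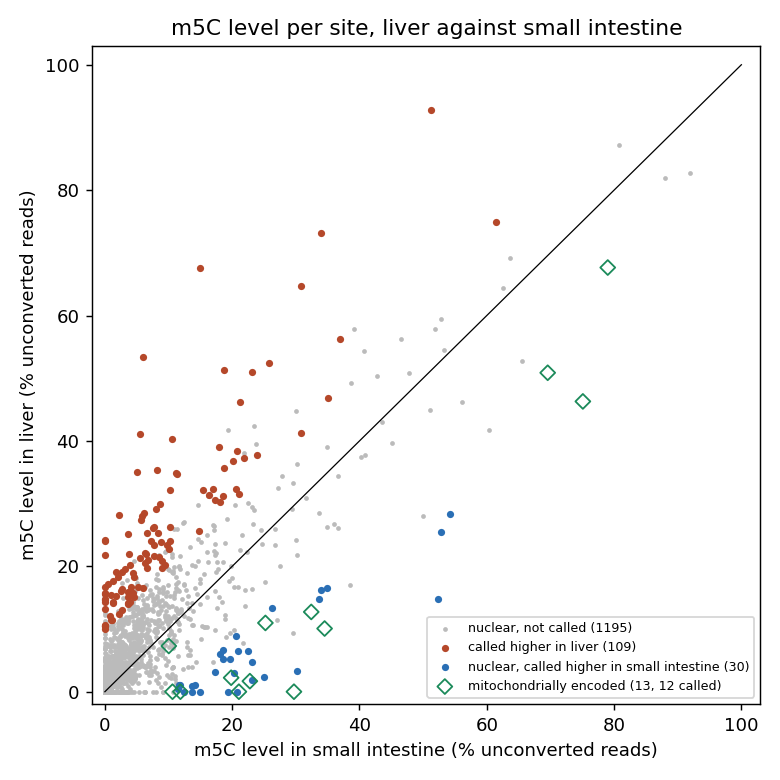
Each point is 1 of the 1347 sites, with its m5C level in small intestine on the x axis and in liver on the y axis (both in % of reads unconverted); colours mark the 109 sites called higher in liver, the 30 nuclear sites called higher in small intestine and the 13 mitochondrially encoded sites. More points lie above the line of equal level (950) than below it (352), and all 13 mitochondrial sites lie below it.

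The largest difference in favour of liver was in Pm20d1, which encodes a secreted enzyme that joins fatty acids to amino acids. On chromosome 1 at position 131816995, 995 of 1474 liver reads were unconverted, 67.5% (95% Wilson interval 65.1 to 69.8), against 126 of 844 in small intestine, 14.9% (12.7 to 17.5). The difference was 52.6 points (49 to 55.8) with a Fisher's exact adjusted p of 1.11e-138. Heart was at 45.1% at this site. Lamb3, the beta 3 chain of laminin 332 in basement membranes, followed with 39 of 73 liver reads (53.4%) against 18 of 303 (5.94%), at position 193323896 of chromosome 1. Lung, the only other tissue with at least 20 reads there, was at 19.6% of 260 reads, between liver and small intestine.

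Aldh4a1, the mitochondrial enzyme that completes proline breakdown to glutamate, had 3957 of 11313 reads (35.0%) in liver and 255 of 5062 (5.04%) in small intestine, within 1 kb of the 3′ end of the gene on chromosome 4 at 139648956. This was the most deeply read of the 12 largest liver differences, at 29.9 points (28.9 to 31.0). Marc2, a molybdenum-dependent reductase of the outer mitochondrial membrane, had 30 of 41 (73.2%) and 37 of 109 (33.9%), with an interval of 21.5 to 53.1 points. In Ptdss1, which makes phosphatidylserine, the level was 40.3% of 667 reads in liver and 10.6% of 820 in small intestine. Serinc2, of a family of membrane proteins first linked to serine incorporation into lipids, had 51.4% of 37 reads and 18.8% of 277. Gpd2, the mitochondrial glycerol-3-phosphate dehydrogenase, had 28.1% of 267 and 5.86% of 1587.

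Rptor, the substrate-binding subunit of mTOR complex 1, had 355 of 767 reads (46.3%) in liver and 132 of 622 (21.2%) in small intestine, a difference of 25.1 points (20.2 to 29.7) within 1 kb of the 3′ end of the gene. Gpr137, a membrane protein of the lysosome, read 41.1% against 5.52%. Nelfb, a subunit of the negative elongation factor that holds RNA polymerase II near promoters, read 35.4% and 8.26%. Aes, a corepressor of the Groucho family, had 3039 of 14233 (21.4%) and 292 of 5300 (5.51%), and Cd81, a tetraspanin, had 1765 of 12434 (14.2%) and 323 of 8756 (3.69%). Both were among the 5 liver calls with the smallest p (Fisher's exact adjusted p of 1.03e-177 and 3.21e-155). Tacc1, a centrosomal coiled-coil protein, was at 52.4% and 25.7%, and Ccdc107 at 64.7% of 2223 reads and 30.9% of 1549.

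Rpl3, a protein of the large ribosomal subunit, had the highest liver level of any tested site, 77 of 83 reads (92.8%; 85.1 to 96.6), against 20 of 39 (51.3%; 36.2 to 66.1) in small intestine. Its adjusted p by Fisher's exact test was 3.56e-06. Ribosomal protein genes have many near-identical processed copies, and the sources used here do not say how the authors assigned such reads. The same caution holds for H2-Q2, a class I histocompatibility gene of a family of close copies. Its sites at 35344876 and 35342746 of chromosome 17 had 21.7% of 46 and 10.4% of 125 reads in liver against 23 of 30034 (0.08%) and 34 of 37845 (0.09%) in small intestine. Leaving out genes of such families gave 102 liver and 40 small intestine calls.

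**Figure D2:**
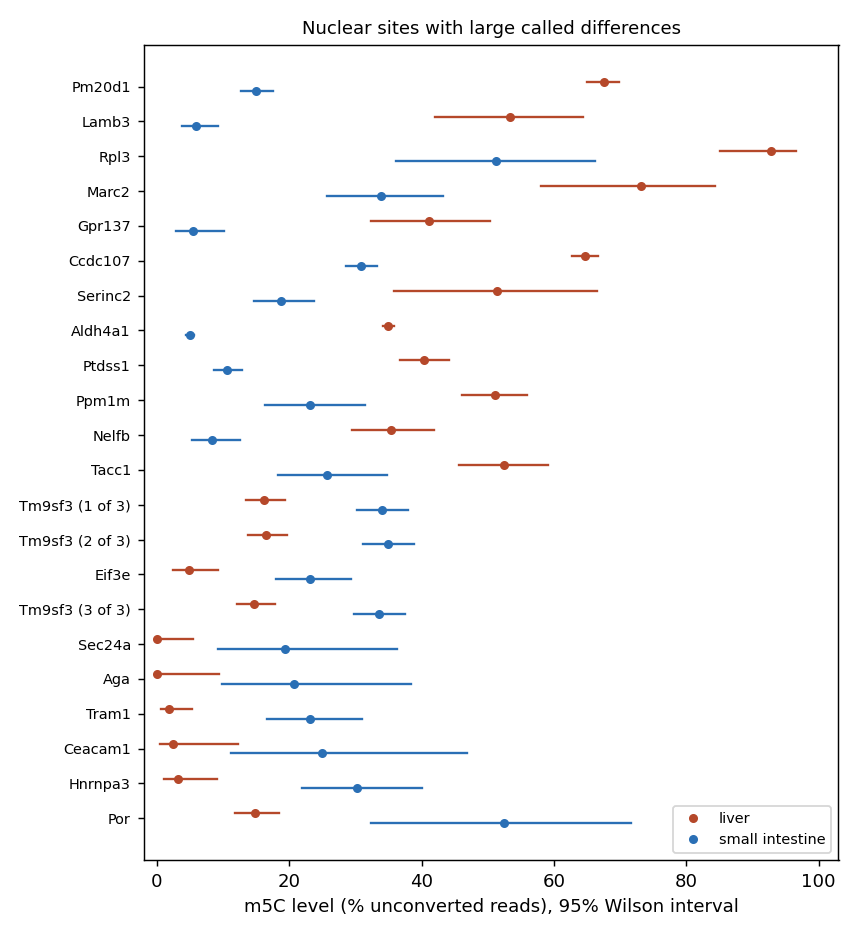
m5C levels (% of reads unconverted, x axis) with 95% Wilson intervals as lines for nuclear sites with large called differences, liver and small intestine in separate colours, ordered by difference. Intervals are narrow at deeply read sites such as Aldh4a1 (34.1 to 35.9 in liver) and wide where reads are few, as at Por (32.4 to 71.7 in small intestine).

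Nuclear sites higher in small intestine were fewer, 30 of 1334 (2.25%) against 109 (8.17%) higher in liver, and most of the largest had modest depth. Por, the reductase that passes electrons to cytochromes P450, had the largest difference, 65 of 438 reads (14.8%) in liver and 11 of 21 (52.4%) in small intestine, or -37.5 points (-57.1 to -17.2).

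Tram1, which helps nascent chains through the translocon of the endoplasmic reticulum, had 3 of 163 reads (1.84%) in liver and 30 of 130 (23.1%) in small intestine, with a Fisher's exact adjusted p of 5.59e-08. Sec24a, the cargo-binding part of the COPII vesicle coat, had 0 of 67 and 6 of 31 (19.4%). The 0 in liver allows up to 4.48%. Ceacam1, an epithelial adhesion molecule with close family members, had 1 of 42 and 5 of 20, and its call was lost when both columns were reduced to equal depth. Aga, a lysosomal enzyme of glycoprotein breakdown, had 0 of 37 and 6 of 29 and likewise lost its call at equal depth.

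Hnrnpa3, a nuclear RNA-binding protein, had 3 of 92 reads (3.26%) in liver and 29 of 96 (30.2%) in small intestine, or -26.9 points (-37.0 to -16.8). Eif3e, a subunit of the initiation factor that recruits the small ribosomal subunit, had 8 of 167 (4.79%) and 48 of 207 (23.2%). Snhg20, a snoRNA host transcript, had 5 of 164 (3.05%) and 73 of 361 (20.2%). Each of these passed by Fisher's exact test, with adjusted p of 3.22e-06, 2.93e-06 and 2.28e-07. Caprin1, a protein of stress granules, had adjacent sites at 5.22% and 6.72% in liver and 19.7% and 18.5% in small intestine. Rbm7, of the complex that feeds RNA to the nuclear exosome, had 1 of 93 and 11 of 78.

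All 13 tested sites in mitochondrially encoded RNA had a higher level in small intestine, and 12 of the 13 (92.3%) were called so, against 3.12% of all sites. Their median level was 7.29% in liver and 25.2% in small intestine, and the median difference was -18.7 points. Centring moves every difference towards small intestine by construction, so the fact that these 12 calls stayed under it is no further support. Sites of 1 transcript and neighbouring sites share reads, so the 13 sites are fewer than 13 independent values. In mt-Rnr1, the mitochondrial small ribosomal RNA that NSUN4 methylates in mouse, position 911 was at 67.7% in liver (16767 of 24784 reads) and 79.0% in small intestine (3767 of 4768). Position 909 of the same RNA was at 2.23% and 19.8%. Whether 5-methylcytosine or something else left C unconverted at 909 was not tested. The difference at 909 was -17.6 points (-18.8 to -16.5). Lung and spleen stood above both tissues at each position, at 30.9% and 30.5% for 909 and 93.0% and 88.7% for 911. Heart and muscle did not, at 3.38% and 1.91% for 909 and 74.3% and 62.4% for 911.

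The protein-coding mitochondrial transcripts followed the same direction. In mt-Cytb, cytochrome b of respiratory complex III, position 14920 had 6790 of 14665 reads (46.3%) in liver and 12916 of 17199 (75.1%) in small intestine. At position 14917 the levels were 11% and 25.2%. A cluster at 14166, 14168, 14169 and 14170 had no unconverted read among 133, 82, 93 and 98 in liver, which allows up to 2.26%, 3.66%, 3.23% and 3.06%. In small intestine this cluster read 11.9%, 21.1%, 29.7% and 10.6%. Heart was at most at 0.46% and muscle between 0.82% and 3.21% at the same 4 positions, so these sites had a level over 10% in small intestine alone among the 4 tissues with values.

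The subunits of the other complexes gave differences of similar size. For mt-Nd4 and mt-Nd5, of complex I, liver was at 12.7% and 50.9% and small intestine at 32.4% and 69.6%. mt-Co2, of cytochrome oxidase, had 22 of 1308 reads (1.68%) and 320 of 1405 (22.8%). mt-Atp6, of ATP synthase, had 27 of 268 (10.1%) and 388 of 1124 (34.5%). The exception to the calls was mt-Tl1, a leucine tRNA, with 7.29% and 10.0% and an adjusted p of 0.478 by Fisher's exact test. None of the 19 tested sites in nuclear genes of the TCA cycle and oxidative phosphorylation was called, against 11.2% of all sites. Of these 19, 17 lay above 0, 11 passed the adjusted p with a higher level in liver and 1 with a higher level in small intestine. The most covered of these, the adjacent Cox7c sites, read 11.5% and 6.31% in liver and 5.66% and 3.82% in small intestine.

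**Figure D3:**
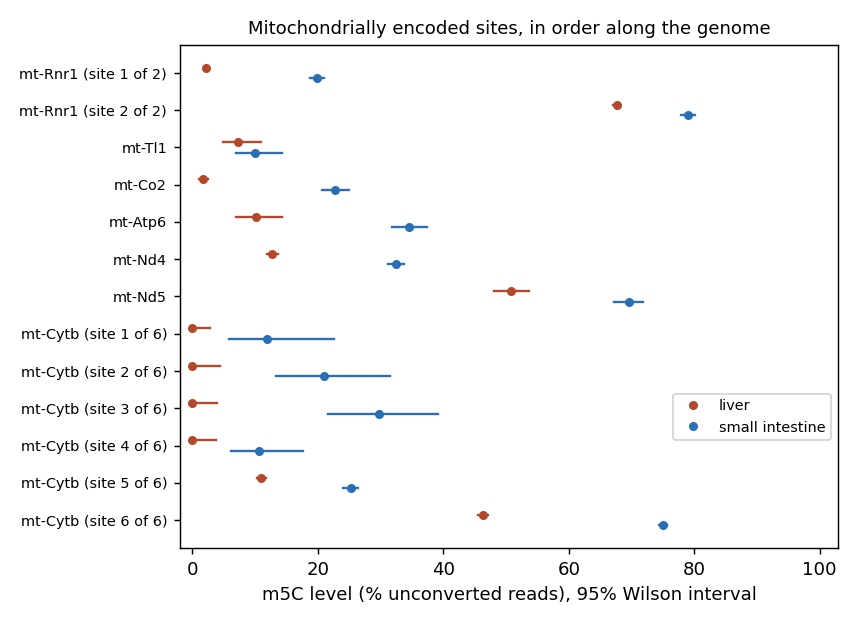
m5C levels (% of reads unconverted, x axis) with 95% Wilson intervals as lines at the 13 mitochondrially encoded sites, in genome order, for liver and small intestine. The small intestine value lies to the right at every site, and the intervals overlap only at mt-Tl1.

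Gene groups are given by the number of tested sites called and by their median difference, read beside 11.2% and 1.77 points over all sites. The lists and their members were chosen with earlier results of these data known. For secretion through the endoplasmic reticulum, 16 sites had a median difference of 6.2 points, with 1 liver call and 2 small intestine calls. The liver call was Sec61a1, the pore of the translocon, with 1088 of 2839 reads (38.3%) against 995 of 4810 (20.7%). The small intestine calls were Tram1 and Sec24a, so the called members of this list lay in both directions, and at 50 reads or more 1 small intestine call was left. Genes of polyamine and amino acid metabolism had a median of 6.44 points over 6 sites, with 1 call, Aldh4a1. Under centring that list had 1 liver and 1 small intestine call. Lipid metabolism had a median of 4.37 points over 8 sites and 2 liver calls, Gpd2 and Ptdss1.

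Solute carriers had 3 liver calls and 1 small intestine call among 22 sites, with a median of 4.60 points. Slc39a1, a zinc importer, was at 26.1% and 7.55%, and Slc35a3, a carrier of nucleotide sugars into the Golgi, at 19.8% and 9.04%. Slc26a2, a sulphate carrier, read 7 of 50 (14%) and 24 of 655 (3.66%). Slc16a11, a monocarboxylate carrier, went the other way, at 13.3% and 26.3%. Under centring 1 liver call and 1 small intestine call were left in this list.

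RNA-binding and splicing genes had no liver call among 31 sites and 4 small intestine calls, in Hnrnpa3, Caprin1 at 2 sites and Rbm7. Their median difference was 0.42 points. Zinc finger and chromatin genes had 1 call among 40 sites, Zfp207, at 6.48% in liver and 21% in small intestine. Ribosomal proteins and translation factors had 5 liver and 2 small intestine calls among 40 sites, and at 50 reads or more 2 liver calls. Besides Rpl3 and Eif3e, these included close sites of Eif4a1, an RNA helicase with processed copies of translation initiation, at 24.1% of 29 and 24% of 25 liver reads. The same sites had 0 of 59 and 0 of 58 in small intestine, which allows up to 5.08% and 5.17%. Centring turned this list to 3 liver and 4 small intestine calls. Pabpc4, a poly(A)-binding protein at 74.9% and 61.4%, lost its call under centring.

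Ubiquitin ligases and deubiquitinases had 5 liver and 2 small intestine calls among 43 sites, and at 50 reads or more no small intestine call. Ube2r2, a conjugating enzyme that works with cullin ligases, had 522 of 2373 reads (22%) and 75 of 1153 (6.50%). Trim2 was at 35.7% and 18.7%, and Rnf149 at 20.2% and 3.90%. Rnf144b, with 0 of 104 and 3 of 20, was a small intestine call that did not hold at equal depth. Protein kinases and phosphatases had 4 liver and 3 small intestine calls among 59 sites, turned to 2 and 5 by centring, with Ptprf, a receptor phosphatase, at 18.2% and 2.1%. Small GTPases and their regulators had 2 liver calls among 31 sites, Arfgef2 at 11.4% and 1.03% and Tbc1d22a at 13% and 2.67%, and neither was called under centring. Insulin and mTOR signalling had 1 liver call, Rptor, and 2 small intestine calls among 14 sites, with a median of 1.73 points. Extracellular matrix and adhesion genes had 1 call among 18 sites, Lamb3, and under centring 1 liver and 1 small intestine call. Lysosome and autophagy genes had 1 among 4, Atp6v0a1, a subunit of the proton pump, at 31.5% and 21.1%, which was not called under centring. Non-coding and predicted genes had 4 liver calls, 3 of them in Rpph1, and 1 small intestine call, Snhg20, among 74 sites, which centring turned to 2 liver and 3 small intestine calls.

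Transcripts that define a tissue could rarely be compared. None of the 7 listed sites in hepatocyte secreted and metabolic genes had 20 reads in both tissues. Of 2 intestinal epithelial sites tested, Tff3 was higher in liver, with 101 of 492 reads (20.5%) against 1779 of 28322 (6.28%). Lyz1 was higher in small intestine, with 1014 of 8753 (11.6%) against 1 of 89. Des, the filament protein of muscle, had 16 of 93 reads (17.2%) in liver and 27 of 5117 (0.53%) in small intestine. At the Des site, heart was at 23.7% of 30831 reads, muscle at 33.4% of 69854, lung at 4.89% of 981 and spleen at 0% of 293. Which cells gave the 93 liver reads was not tested. Tpm3, a tropomyosin, had 2 of 418 and 236 of 2056 (11.5%). Des and Tpm3 were the calls among 4 smooth muscle and cytoskeleton sites. The liver values of Tff3, Lyz1 and Des thus rest on 492, 89 and 93 reads of transcripts that were far more deeply read in small intestine. Genes of the m5C machinery had 5 tested sites and no call. Nsun5, a ribosomal RNA methyltransferase, was at 15.2% and 8.25%, Dnmt3a at 12.5% and 5.38%, and the most methylated of 3 sites of Ybx3, a relative of YBX1, at 23.6% and 24.7% (difference -1.11 points, -3.63 to 1.52).

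**Figure D4:**
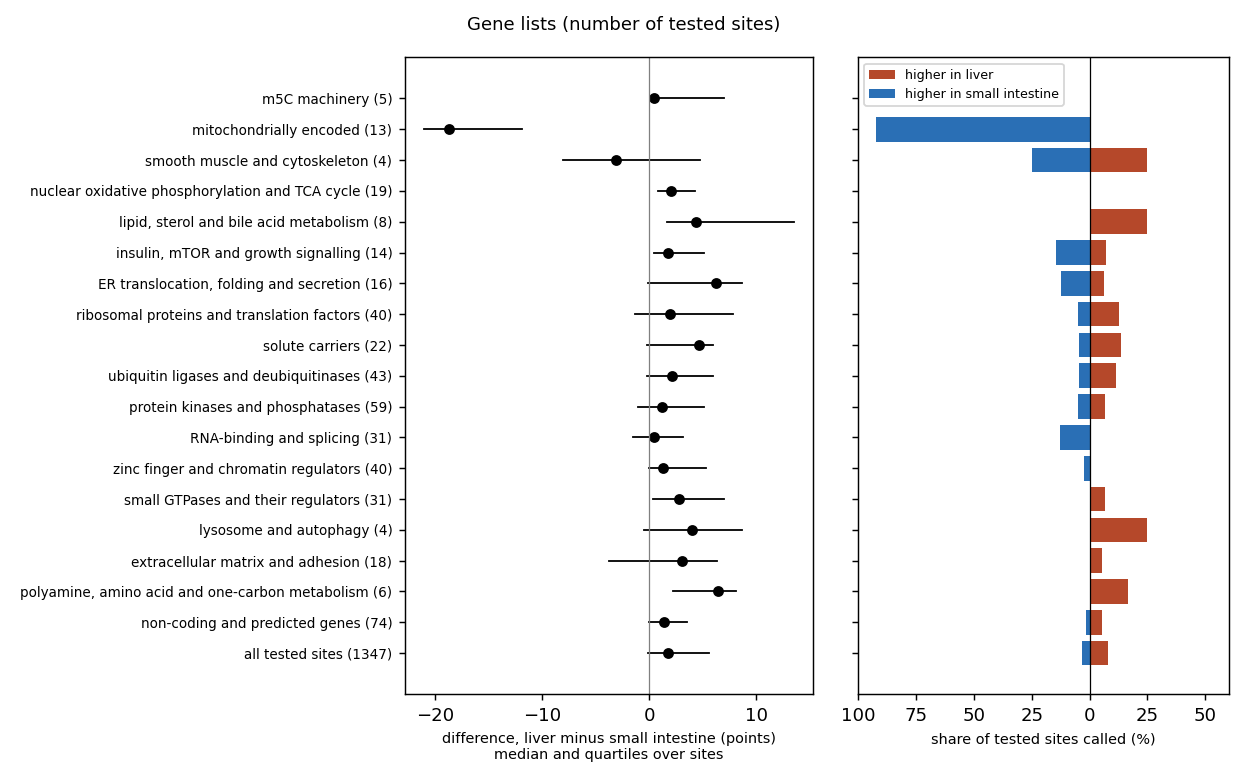
Left, median and quartiles of the difference (liver minus small intestine, percentage points) over the tested sites of each gene list with at least 4; right, share of those sites called (%), higher in small intestine to the left and higher in liver to the right of 0. The mitochondrially encoded list stands at -18.7 points with 92.3% called, and all tested sites at 1.77 points with 11.2% called.

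Sites of 1 gene could be compared in 180 genes with at least 2 tested sites. In 12 of these at least 2 sites were called. Tm9sf3, which encodes a membrane protein of the endosome and Golgi, was the only gene called in both directions. On chromosome 19, its adjacent sites at 41214228 and 41214229 had 20 of 129 and 19 of 129 reads in liver (15.5% and 14.7%) and none of 95 and 94 in small intestine, which allows up to 3.16% and 3.19%. Its 3 sites at 41214817, 41214819 and 41214820 read 16.5%, 16.2% and 14.7% in liver and 34.9%, 34% and 33.6% in small intestine. Their adjusted p by Fisher's exact test ran from 1.17e-12 to 3.20e-11.

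Over the 180 genes, every difference lay above 0 in 88 and below 0 in 20, and the other genes had differences of both signs or of 0. Rpph1, the RNA of ribonuclease P, had 6 sites between 11.2% and 32.4% in liver and between 5.41% and 17% in small intestine. All 6 passed the adjusted p, and 3 also passed 10 points. Afg3l1, a mitochondrial protease gene, had 5 sites, from 1.84% to 29.9% in liver and from 0% to 8.66% in small intestine, of which 2 were called higher in liver. Cacna1a, a calcium channel subunit, had 3 close sites at 17.6%, 16.4% and 15.4% in liver and 1.34%, 2.61% and 0.885% in small intestine. Glg1, a Golgi glycoprotein, was called higher in liver at 111155350 (36.7% and 20.1%) and at 111156493 (20.2% and 9.50%) of chromosome 8, and neither call was left under centring.

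Of the 10 sites with the highest mean level, 5 were called, Rpl3 and Pabpc4 higher in liver and mt-Rnr1 at 911, mt-Nd5 and mt-Cytb at 14920 higher in small intestine. Among the rest, Lars2, the mitochondrial leucyl-tRNA synthetase, had 1318 of 1593 reads (82.7%) in liver and 17676 of 19220 (92.0%) in small intestine. This difference of -9.23 points (-11.2 to -7.41) passed the adjusted p and missed the 10-point minimum. Reads at the Lars2 site numbered 789 in heart and 1823 in muscle, against 5276 in lung and 8747 in spleen, and their origin was not tested. Nisch was at 81.9% and 88.0%, Znrf1, a ubiquitin ligase, at 87.2% and 80.8%, and Trio, a guanine nucleotide exchange factor, at 64.4% and 62.5%, and the intervals of these 3 differences held 0. The Cadps2 levels given above did not differ beyond counting error. The 5 most deeply read sites were those of Rps14, Rps21 and Fth1 and the Cox7c pair given above. Rps14 was at 3.19% and 2.40%, Rps21 at 3.14% and 1.80%, and Fth1, the ferritin heavy chain, at 2.66% and 0.41%. The shallower column at these 3 sites had between 24675 and 29326 reads, and each passed the adjusted p with a difference of at most 2.25 points.

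The 10-point minimum divided close values. Just inside it lay Ubap2 (10.0 points), the Afg3l1 site at 123494919 (10.2), H2-Q2 at 35342746 (10.3) and Slc26a2 (10.3). Just outside lay Uggt1 (9.80), Cd164 (-9.76), Rpl23 (9.71) and Litaf (9.69). In the shallower column, 20 to 49 reads gave a median 95% half-width of 10.9 points for a difference, 50 to 99 gave 7.35, 100 to 499 gave 3.67 and 500 or more gave 1.39. The share called was 10.1%, 13.3%, 9.73% and 12.7% in these 4 classes, and liver calls outnumbered small intestine calls in each.

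Position in the gene was described for sites inside RefSeq gene spans. Of 174 sites within 1 kb of the 5′ end of protein-coding genes of at least 10 kb, 6 were called higher in liver and none in small intestine (3.45%), although levels there were the highest of these classes, with medians of 10.2% and 6.52%. Of 178 sites within 1 kb of the 3′ end, 19 were called higher in liver and 7 in small intestine (14.6%), with medians of 4.90% and 3.19%. The 625 sites elsewhere in such genes had 47 and 17 calls (10.2%). The 251 sites in protein-coding genes under 10 kb had 29 and 5 calls (13.5%). No test of these classes was made.

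The other 4 tissues of the table were not part of the rule or the test. At the 109 sites called higher in liver, the median level was 23.4% in heart and 25.2% in muscle, close to the 22.7% of liver. In lung it was 6.41% and in spleen 3.80%, close to the 6.28% of small intestine. Over all tested sites the medians were 10.7%, 11.8%, 1.71% and 1.15% in the same order. At the 30 nuclear sites called higher in small intestine, where that tissue had a median of 20.4%, heart was at 9.01%, muscle at 5.13% and lung and spleen at 0%. Single sites departed from this. Slc35a3 was at 19.8% in liver and 0.855% of 234 reads in heart, Sec61a1 at 38.3% in liver and 24.4% in heart, and Trim2 at 35.7% and 9.18%. Between 75 and 90 of the 109 sites, and between 13 and 25 of the 30, had at least 20 reads in a given other tissue.

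**Figure D5:**
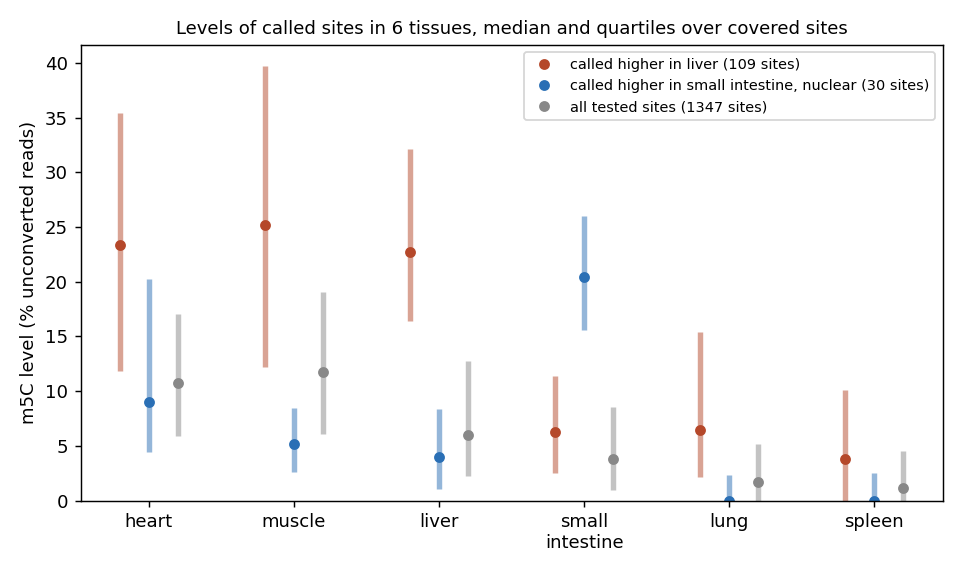
Median m5C level (points, % of reads unconverted) and quartiles (bars) in each of 6 tissues for sites called higher in liver (109), nuclear sites called higher in small intestine (30) and all tested sites (1347), over the sites with at least 20 reads in that tissue. The liver calls have medians of 22.7% to 25.2% in liver, heart and muscle and of 3.80% to 6.41% in small intestine, lung and spleen.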

How the data were processed

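Polyadenylated RNA of 6 mouse tissues had been treated with bisulfite in 12 libraries, of which liver (1) and small intestine (2) were compared. The deposited table gives, per the file headers, a coverage (counts of reads), an m5C level (a fraction from 0 to 1, printed here as a percentage), a p-value and the authors' yes or no call for each site and tissue. The authors' deposited p-values were not used, and their calls, which are other than numbers, served only to select sites in alternatives. The tools were HISAT2 2.10, SAMtools, Trimmomatic, cutadapt and bcl2fastq 2.17 with mm10, per the submitters' processing notes. Site selection, read filters, conversion rates and the pooling of libraries are not given in the sources used here. Deposited coverage starts at 10 reads.

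Unconverted reads were level times coverage, within 0.000179 of a whole number. Sites with at least 20 reads in both columns were tested two-sided by Fisher's exact test in scipy 1.17.1 with Benjamini-Hochberg adjustment over all 1347, and called at an adjusted p under 0.05 and 10 points. Levels have 95% Wilson intervals and differences 95% Newcombe intervals. A count of 0 allows up to 3 counts. The test compares pooled reads, not animals, and reads without molecular identifiers need not be independent molecules. The test was checked on simulated data at the observed coverages. Those simulated reads were independent, so the check does not cover duplicate reads or differences between libraries.

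The sites named are the 12 largest differences and 5 smallest p each way, the 10 highest mean levels, the 5 deepest, 4 on each side of 10 points, called members of 20 gene lists (at most 4 each, otherwise the 2 most covered), the m5C machinery and genes with at least 2 calls. Members and lists were chosen with earlier results of these data known. RefSeq gene spans (GRCm38.p6) matched 1284 sites, of which 1270 lay inside. A gene that this rule names is not reported here.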

Additional observations from a re-analysis of the deposited data

How the results depend on the processing

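The counts of 109 liver calls and 42 small intestine calls were recomputed under 14 alternatives, and liver calls outnumbered small intestine calls in all but the centred one (58 and 61). At 100 reads or more, 90 sites were called (68 and 22). With no minimum difference 427 were called (355 and 72), and with 20 points 39 (27 and 12). With all reads cut to 1 in 2, 98 were called (72 and 26). Among sites the authors called in another tissue, 97 were called (76 and 21). Among those they called in liver or small intestine the median difference was 6.37 points. That subset was chosen by calls on the 2 columns compared, so its median is not independent of them. The authors called 408 tested sites in liver and 224 in small intestine. Without sites within 10 nt of another, 26 were called higher in small intestine. Counts stayed within 1.5 times at 10 reads (108 and 43), 50 reads (92 and 34), equal depth (84 and 33), without mitochondrial genes (109 and 30) and with 1 site per gene (86 and 29). The same held without genes of near-identical copies (102 and 40), an alternative chosen after seeing the data. The 101 named sites include uncalled ones, which had no call to lose. Of the called ones, 18 lost their call under centring, 17 at equal depth and 22 with reads cut to 1 in 2. Of the uncalled ones, 2 gained a call under centring and 3 at equal depth. No called site among the 101 changed direction, and direction was not assessed for those not called. At 50 reads, 4 of 57 list values and 1 of 18 position values moved. The planned sequence classes were limited to the 39 sites in RefSeq windows and were not run at 50 reads. No paired analysis was possible because the columns carry no replicate number. At 20 to 49 reads the 95% interval of a difference had a median half-width of 10.9 points, about the 10-point minimum itself.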

Other observations

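Sites with at least 20 reads in only 1 of the 2 tissues were outside the comparison and are given as values. The 209 sites with at least 20 reads in liver alone had a median level of 8.44%, and 99 reached 10%. Hebp1, a heme-binding protein, had 164 of 167 reads unconverted in liver, 98.2% (95% Wilson interval 94.9 to 99.4). Ass1, the urea cycle enzyme argininosuccinate synthase, had 178 of 266 (66.9%), and Adra1b, an adrenergic receptor, 678 of 1837 (36.9%). The abundant hepatocyte transcripts Alb and Serpina3k were at 15.6% and 31.5%. Mup-ps21, a pseudogene among many close copies of the major urinary protein genes, had 87.2% and 70.5% at positions 62031627 and 62031634 of chromosome 4.

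The 262 sites with that depth in small intestine alone had a median of 6.42%, and 105 reached 10%. Itgb4, the integrin of epithelial hemidesmosomes, had 114 of 137 reads (83.2%; 76.1 to 88.5). Rab11fip1, an effector of recycling endosomes, had 468 of 1364 (34.3%), Casz1, a zinc finger transcription factor, 331 of 975 (33.9%), and the Paneth cell defensin Defa24 was at 22.1% of 3324. The defensin genes are close copies of one another. Of the 209 and 262 sites, 143 and 183 were blank in the other tissue and 66 and 79 had 10 to 19 reads there. The sites named here were chosen after their values were seen.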
